A study of Homo sapiens with 8 samples.

Results

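The amino acid response that runs through the transcription factor ATF4 was followed as a set of 41 genes in CAPAN-2 cells, an established line of human pancreatic adenocarcinoma. The set was chosen by earlier results of these data: the lower log2 ratios of CTH and PCK2 in both experiments and of ASNS and GDF15 in the MUC4-KD experiment led to it, and the remaining genes were added as known members of the pathway. Of the 41, 37 had a probe named through its accession, out of 17240 genes on the array. MTHFD2, ALDH1L2 and SLC3A2 had probes that only the study's own list of changed genes names, so they were described and not counted, and CARS1 had no named probe. All 37 were bright enough to be tested in both experiments, 1 of them (SLC6A9) on the MUC4-KD arrays through the Mock RNA only.

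The study asked which genes depend on MUC4, a membrane-bound mucin, and on its partner ErbB2, an oncogenic receptor. Stable ErbB2-KD clones, made with a vector for an ErbB2 short hairpin RNA under puromycin selection, were compared with NT clones that carry the empty vector. MUC4-KD clones, made with a retroviral pRetroSuper vector under G418 selection, were compared with Mock clones that carry that vector empty. Each experiment used 4 Agilent 2-colour arrays, with the RNA of 4 knockdown clones set against 1 RNA pool of 4 control clones. The ErbB2-KD clones were EV7, EV12, EV9 and EV18 on arrays 1 to 4, and the labels do not name those of MUC4-KD. They do not say whether MUC4-KD arrays 1 and 3, and 2 and 4, are dye-swapped pairs of the same RNA; with these pairs averaged, 23 of 33 tested members were called lower in place of 24 (15.3% of all genes were called). The pool is 1 control sample, so the tests leave out the spread between control clones, and a difference may belong to a clone as well as to the knockdown. All p-values measure the spread between the 4 arrays alone.

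When amino acids run short, uncharged tRNA activates the kinase GCN2, which phosphorylates the initiation factor eIF2α and slows general translation. Other kinases do the same under endoplasmic reticulum stress, viral RNA or haem shortage, and the ATF4 messenger is then translated more. ATF4 pairs with C/EBP proteins at a composite DNA element and raises genes that make, import and load amino acids onto tRNA, together with feedback genes such as TRIB3 and secreted signals such as GDF15.

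The core of that composite element, TGATGNAA, was searched on both strands of the RefSeq promoters (GRCh38.p14), each 300 bases from 250 before to 50 after the gene start. It occurred in 10 of the 34 members with a promoter in the table and in 3.67% of all 27305 promoters, and its stricter form TGATGCAA, contained in the first, in 7 of 34 and in 0.923%. The palindromic cyclic AMP element TGACGTCA occurred in 0 of the 34 and in 1.98% of all. These matches are descriptions of the letters, not sites of binding. The 250 bases before the starts of ASNS (chr7:97872409-97872658, minus strand) and CHAC1 (chr15:40953221-40953470, plus strand) are shown in full because these had the lowest MUC4-KD means of the counted members with the element, which is in capitals (read on the opposite strand in CHAC1).
ASNS: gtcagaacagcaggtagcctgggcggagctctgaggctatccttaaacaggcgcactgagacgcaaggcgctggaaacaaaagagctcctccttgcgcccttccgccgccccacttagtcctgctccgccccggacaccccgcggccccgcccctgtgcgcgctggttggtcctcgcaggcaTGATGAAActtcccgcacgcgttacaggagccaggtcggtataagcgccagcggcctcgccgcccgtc
CHAC1: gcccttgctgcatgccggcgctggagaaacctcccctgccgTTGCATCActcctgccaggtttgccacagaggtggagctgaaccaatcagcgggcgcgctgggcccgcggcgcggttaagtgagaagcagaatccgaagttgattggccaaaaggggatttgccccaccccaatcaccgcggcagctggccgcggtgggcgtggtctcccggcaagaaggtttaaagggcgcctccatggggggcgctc
Windows of 30 bases around the element are shown for 5 tRNA synthetase genes, since only some of that group passed the test, with capitals marking the element and the strand of the gene shown 5′ to 3′. The element is read on the opposite strand in all but NARS1. The windows lie at chr16:70289675-70289704 for AARS1, chr9:92293692-92293721 for IARS1, chr12:57488053-57488082 for MARS1, chr5:33440956-33440985 for TARS1 and chr18:57621804-57621833 for NARS1.
AARS1: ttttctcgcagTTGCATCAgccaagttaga
IARS1: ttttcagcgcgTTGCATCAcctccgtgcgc
MARS1: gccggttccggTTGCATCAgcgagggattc
TARS1: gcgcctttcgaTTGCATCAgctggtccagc
NARS1: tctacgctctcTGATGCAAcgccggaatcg

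The knockdown targets served as a check on the labels. For ERBB2, 1 probe (A_23_P89249) gave log2 ratios of -0.58, -0.32, -0.33 and -0.38 on the ErbB2-KD arrays, lower on 4 of 4 (limma adjusted p = 0.145), and its other probe averaged 0.04. For MUC4, ratios of the RNA labelled MUC4-KD over that labelled Mock were 1.71, 2.34, 2.21 and 1.08 at probe A_24_P208825 (mean 1.84, adjusted p = 0.00804), and its other probes had means of 1.34 (adjusted p = 0.0355), 0.41 (0.0984) and 0.27 (0.167). All 4 means go against the label, but on array 4 the probes other than A_24_P208825 had 0.10, -0.04 and -0.05. The values of this experiment follow the labels, as do the words fell and rose throughout. In this experiment neither word states which way the knockdown moved a gene. The direction of these values is opposite to that of the study's own list of changed genes. Of 7 ductal epithelial markers, 7 were bright enough to test in both experiments, and of 6 markers of leukocytes, fibroblasts, endothelial, islet and acinar cells with a probe, 0 were. MUC4-KD array 4 stood apart: its ratios correlated at 0.33 to 0.53 with the other 3 arrays, which correlated at 0.68 to 0.83 among themselves. The ErbB2-KD arrays correlated at 0.20 to 0.72, and array 2 (EV12) at 0.20 to 0.39 with the others. That array shared a slide with MUC4-KD array 4 and no other. Its median signals were 248 in Cy3 and 593 in Cy5, against 100 to 119.5 and 158.25 to 201 on the other arrays. The part of slide or signal in the values of ErbB2-KD array 2 and MUC4-KD array 4 was not tested. Per channel, 56.7% to 74.2% of the probes exceeded background clearly.

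In the RNA labelled MUC4-KD, every one of the 37 members had a lower mean, at its brightest probe, than in the RNA labelled Mock. The lowest were GDF15, a stress-induced secreted factor, TRIB3, a pseudokinase that binds ATF4, ASNS, which makes asparagine, PSPH, which makes serine, and PCK2, the mitochondrial enzyme that makes phosphoenolpyruvate; with the sign turned these would be the highest. The median log2 ratio of the members was -1.36, against -0.01 over all 12289 genes tested, of which 51.2% were lower. By array the members' median was -1.56, -1.52, -1.52 and -1.05, with 36, 36, 36 and 31 of 37 below 0. Of the 33 members whose ratios had not led to the list, 24 fell at an adjusted p under 0.05 and 0 rose; over all genes, 10.9% were called lower and 12.2% higher. One of the 24, SLC6A9, was tested through the Mock RNA only. With the filter in both channels the count was 23 of 32 (24.5% of all genes called in either direction). With array 4 left out the count was 29 (37.3% of all genes called in either direction), with array 1 left out 14 (3.16%), with array 2 left out 18 (5.22%) and with array 3 left out 7 (0.936%). Members no longer called without array 3 included ATF4 (limma adjusted p = 0.0612), SHMT2 (0.0632), SLC7A11 (0.0784) and SLC1A5 (0.0571). The count was 0 when the arrays were centred on their median in place of loess, where 0 of 12289 genes were called. In RNA of whole cultures, fewer cells of a kind and less RNA per cell cannot be told apart.

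**Figure D1:**
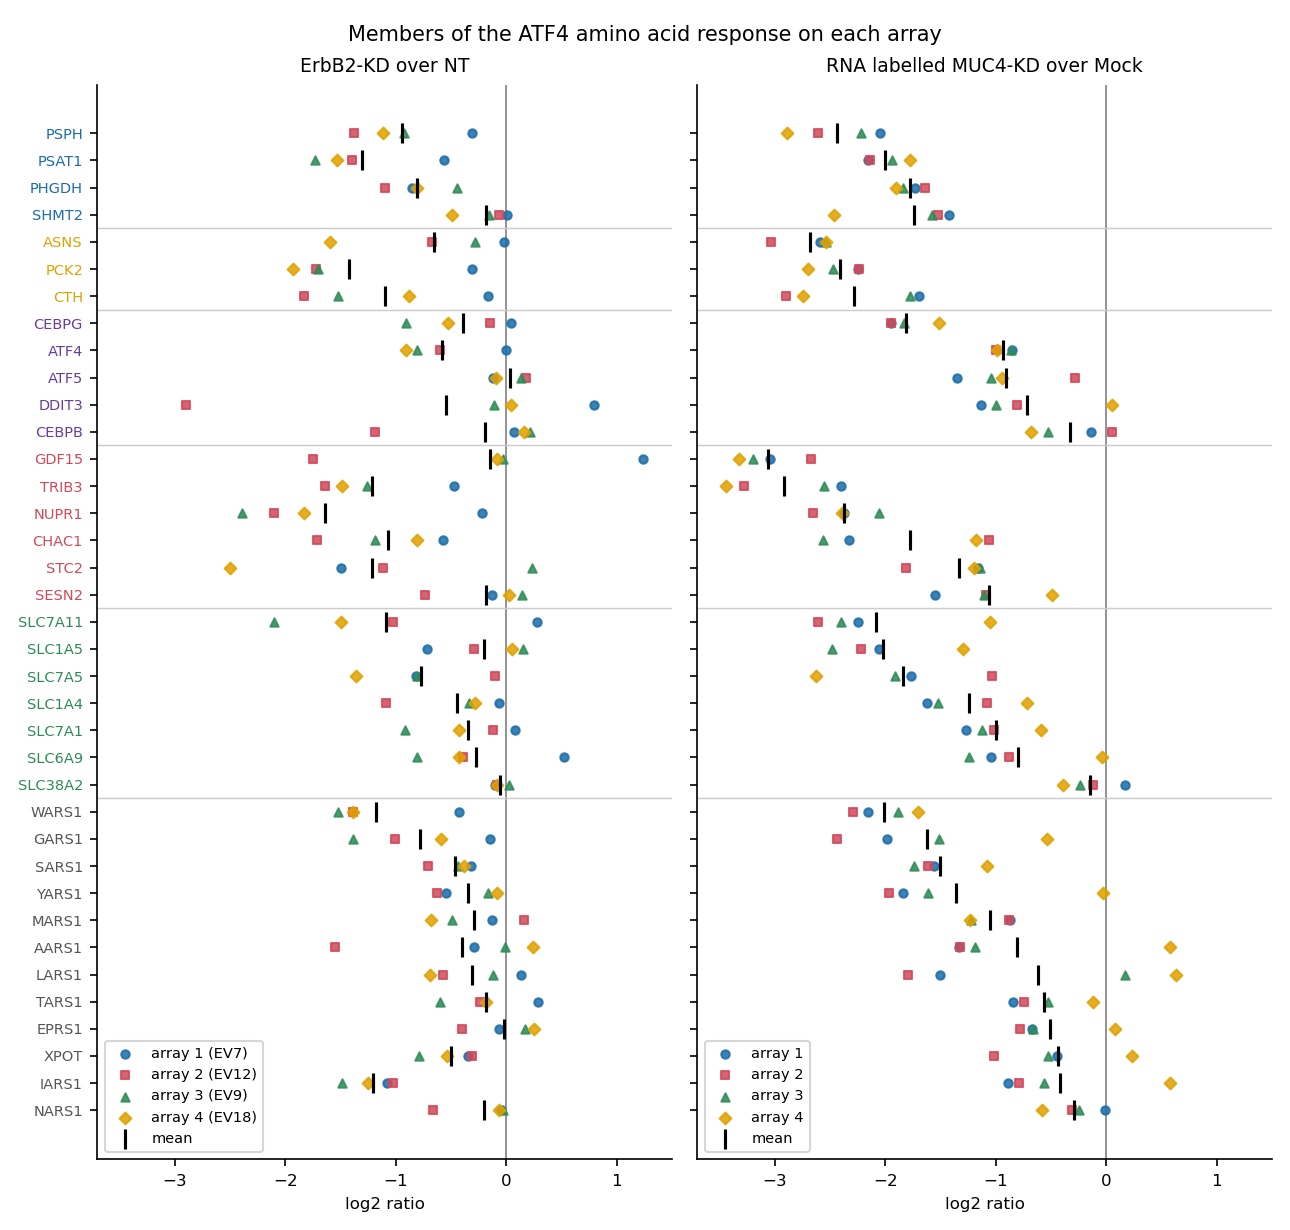
Log2 ratios of the 37 members (rows, coloured and separated by role) on each of 4 arrays, ErbB2-KD over NT on the left and RNA labelled MUC4-KD over Mock on the right; coloured symbols are arrays and black bars are means. Every mean on the right lies below 0, and array 4 lies above 0 for 5 of the synthetase and tRNA export genes shown at the bottom.

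The enzymes that build serine and feed one-carbon units into the mitochondria fell together, with 4 of 4 called and means between -2.44 and -1.74. PHGDH, which commits glycolytic carbon to serine, had log2 ratios of -1.73, -1.64, -1.84 and -1.90 (mean -1.78 ± 0.12 SD, n = 4, limma adjusted p = 0.00208). PSAT1, the transaminase of the second step, had -2.16, -2.14, -1.94 and -1.78 (-2.0 ± 0.18, adjusted p = 0.00200). PSPH, which removes the phosphate, had -2.05, -2.61, -2.22 and -2.89 (-2.44 ± 0.38, adjusted p = 0.00232). All arrays of the 3 genes lay far below 0. Of the other probes of PSPH, 1 had a mean of -2.38 and the other a mean of -0.35 (adjusted p = 0.122). SHMT2, which splits serine to glycine in mitochondria, had -1.42, -1.52, -1.58 and -2.46 (-1.74 ± 0.48, adjusted p = 0.00673), with array 4 the lowest, and its second probe had a mean of -1.88 (adjusted p = 0.00232). MTHFD2, the mitochondrial folate dehydrogenase, had -1.60, -1.09, -1.58 and -0.86, and ALDH1L2, which oxidises formyl folate there, had -1.74, -2.24, -2.04 and -0.57. Both were lower on 4 of 4 arrays and got no test, because only a list of changed genes names their probes.

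The other 3 enzymes of the set chose it in this experiment and are described without a test. ASNS had log2 ratios of -2.59, -3.03, -2.54 and -2.54 (mean -2.68 ± 0.24 SD, n = 4). CTH, which releases cysteine from cystathionine, had -1.69, -2.90, -1.78 and -2.74 (-2.28 ± 0.63). PCK2 had -2.25, -2.24, -2.47 and -2.70 (-2.41 ± 0.22), and its second probe had a mean of -2.06. CTH was lower by about 1 log2 unit on arrays 2 and 4 than on arrays 1 and 3, whereas ASNS differed little between arrays other than array 2.

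The transcription factors had smaller ratios, with a median of -0.91 and 3 of 5 called. ATF4 itself had log2 ratios of -0.85, -1.0, -0.86 and -0.99 (mean -0.93 ± 0.08 SD, n = 4, adjusted p = 0.00651). Its second probe had -0.87, -0.76, -1.15 and 0.52 (-0.56 ± 0.74, adjusted p = 0.181). The probes differed on array 4, where the first was as low as elsewhere and the second was above 0. CEBPG, a C/EBP partner of ATF4, had -1.95, -1.95, -1.83 and -1.51 (-1.81 ± 0.21, adjusted p = 0.00232). ATF5, a related factor, had -1.35, -0.28, -1.04 and -0.94 (-0.91 ± 0.45, adjusted p = 0.0274). CEBPG was the lowest of the 5 on every array, and ATF5 spread most among those called. DDIT3, the stress factor CHOP, had -1.13, -0.81, -1.0 and 0.05 (-0.72 ± 0.53, adjusted p = 0.0573). Without array 4, where 37.3% of all genes were called, its mean was -0.98 with an adjusted p of 0.00392. CEBPB, another C/EBP partner, had -0.14, 0.05, -0.53 and -0.68 (-0.33 ± 0.34, adjusted p = 0.168) and lay on both sides of 0, with a second probe at a mean of -0.37 (adjusted p = 0.112).

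Among the stress regulators and secreted factors, 5 of the 5 with a test fell. TRIB3 had log2 ratios of -2.40, -3.28, -2.55 and -3.44 (mean -2.92 ± 0.52 SD, n = 4, adjusted p = 0.00263), and its second probe had a mean of -2.52 (adjusted p = 0.00383). NUPR1, a small chromatin-bound stress protein first known from pancreatitis, had -2.37, -2.65, -2.06 and -2.39 (-2.37 ± 0.24, adjusted p = 0.00191). CHAC1, which degrades glutathione, had -2.33, -1.06, -2.56 and -1.18 (-1.78 ± 0.77, adjusted p = 0.0159). The brighter TRIB3 probe was lower on arrays 2 and 4 than on 1 and 3, CHAC1 the other way round, and NUPR1 showed no such split. The second TRIB3 probe was highest on array 4, at -1.81. STC2, a secreted glycoprotein, had -1.16, -1.81, -1.14 and -1.20 (-1.33 ± 0.32, adjusted p = 0.00680), and SESN2, which restrains mTORC1 when leucine is scarce, had -1.55, -1.09, -1.11 and -0.49 (-1.06 ± 0.43, adjusted p = 0.0180). GDF15, described without a test, had -3.04, -2.67, -3.2 and -3.32 (-3.06 ± 0.28), the lowest mean of the 37.

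Of 7 amino acid transporters tested, 6 fell, SLC6A9 among them, which entered the test through the Mock RNA only. SLC7A11, the cystine importer, had log2 ratios of -2.25, -2.61, -2.40 and -1.05 (mean -2.08 ± 0.70 SD, n = 4, adjusted p = 0.00893). Its other probes had means of -1.51 (adjusted p = 0.0477) and -1.25 (0.0351). The probe at -1.25 entered the test through the Mock RNA only. Its MUC4-KD signal was well above background on 1 of 4 arrays, so the size of that ratio is uncertain. SLC1A5, a glutamine carrier, had -2.06, -2.22, -2.48 and -1.30 (-2.02 ± 0.51, adjusted p = 0.00534). SLC7A5, the light chain of the leucine exchanger, had -1.77, -1.03, -1.91 and -2.63 (-1.84 ± 0.66, adjusted p = 0.0107), but its second probe had a mean of -0.39 (adjusted p = 0.126). Array 4 was the highest for the cystine and glutamine carriers and the lowest for SLC7A5. SLC1A4, which carries alanine and serine, had -1.62, -1.08, -1.52 and -0.72 (-1.24 ± 0.41, adjusted p = 0.0117). SLC7A1, the cationic amino acid carrier, had -1.27, -1.02, -1.12 and -0.59 (-1.0 ± 0.29, adjusted p = 0.0117), with a second probe at a mean of -0.30 (adjusted p = 0.139). SLC6A9, the glycine carrier, had -1.04, -0.88, -1.24 and -0.04 (-0.80 ± 0.53, adjusted p = 0.0459), and its MUC4-KD signal was well above background on 3 of 4 arrays. SLC38A2, a neutral carrier known to be induced by amino acid lack, was the exception, with 0.17, -0.12, -0.24 and -0.39 (-0.15 ± 0.24, adjusted p = 0.431) and a second probe at -0.61 (adjusted p = 0.0814). The probes of SLC3A2, the shared heavy chain of SLC7A11 and SLC7A5, had means of -1.80 and -1.50 and were lower on 4 of 4 arrays, with no test.

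The tRNA synthetases, which load amino acids onto tRNA, had 6 of 12 genes called (XPOT, the tRNA export receptor, is counted with them). WARS1, the tryptophan enzyme, had log2 ratios of -2.16, -2.29, -1.88 and -1.70 (mean -2.01 ± 0.27 SD, n = 4, adjusted p = 0.00232). SARS1, for serine, had -1.56, -1.61, -1.74 and -1.08 (-1.50 ± 0.29, adjusted p = 0.00457), and GARS1, for glycine, had -1.98, -2.44, -1.51 and -0.54 (-1.62 ± 0.81, adjusted p = 0.0217). MARS1, for methionine, had -0.87, -0.88, -1.22 and -1.23 (-1.05 ± 0.21, adjusted p = 0.00735). In WARS1, SARS1 and GARS1 array 4 was the highest. The MARS1 probes disagreed there, since the second had -1.67, -1.85, -1.58 and 0.37 (adjusted p = 0.0709). YARS1, for tyrosine, had -1.84, -1.97, -1.61 and -0.03 (-1.36 ± 0.90, adjusted p = 0.0395), and TARS1, for threonine, had -0.84, -0.74, -0.53 and -0.12 (-0.56 ± 0.32, adjusted p = 0.0472). The median of the 12 genes was -1.11, -1.17 and -0.93 on arrays 1 to 3 and -0.08 on array 4.

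The 6 genes that were not called were AARS1, IARS1, LARS1, EPRS1, NARS1 and XPOT. On arrays 1 to 3, AARS1, for alanine, had log2 ratios of -1.33, -1.32 and -1.19, and 0.58 on array 4. IARS1, for isoleucine, had -0.89, -0.79, -0.56 and then 0.58, and EPRS1, for glutamate and proline, had -0.67, -0.78, -0.66 and then 0.08. Without array 4 the means of these 3 were -1.28, -0.75 and -0.70, with adjusted p of 0.00179, 0.00819 and 0.00704, and XPOT was called as well (-0.67, adjusted p = 0.0219). In that setting 37.3% of all genes were called. LARS1, for leucine, had -1.50, -1.79, 0.17 and 0.63, and its arrays lay on both sides of 0, with a second probe at a mean of 0.07. NARS1, for asparagine, stayed between -0.58 and -0.01.

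Synthetases outside the set gave a comparison within the same enzyme class. The median log2 ratio of the other 8 cytosolic ones was -0.12, with 1 called lower (FARSA, -0.98, adjusted p = 0.00834) and 0 higher. That of 15 mitochondrial ones was 0.08, with 2 called lower (FARS2 and SARS2) and 1 higher (HARS2). Over all genes, 10.9% were called lower and 12.2% higher. RARS1 and KARS1, for arginine and lysine, had means of 0.52 and 0.00. KARS1 was at -0.43, -0.76 and -0.38 on arrays 1 to 3 and at 1.59 on array 4. The listed and the other synthetases were not tested against each other.

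**Figure D2:**
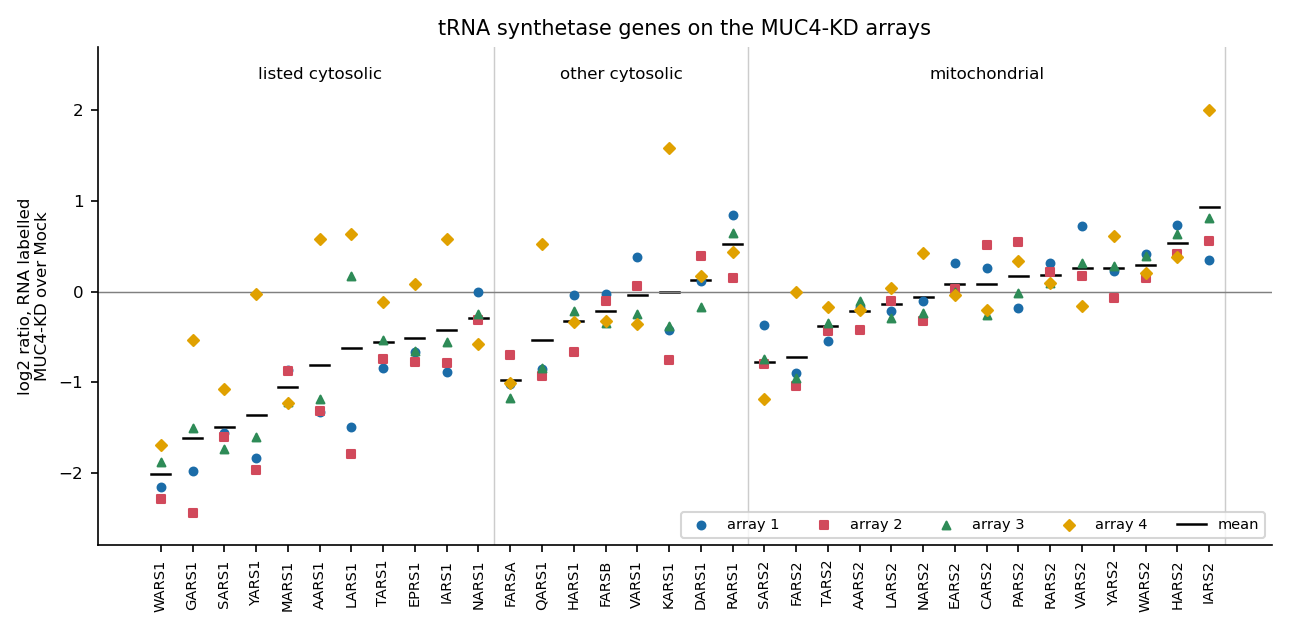
Log2 ratios (RNA labelled MUC4-KD over Mock) of 11 listed cytosolic, 8 other cytosolic and 15 mitochondrial tRNA synthetase genes; symbols are the 4 arrays and bars are means. All 11 listed genes have a mean below 0 and array 4 lies above the other arrays for 9 of them, whereas the mitochondrial means spread around 0.

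In the ErbB2-KD clones the mean was below 0 for 36 of 37 members (ATF5 had 0.03) and 1 of 35 passed the test. The members had a median log2 ratio of -0.46 against 0.00 over all 12028 genes tested, of which 50.4% were lower. Of the 35 members with a test, 1 fell at an adjusted p under 0.05, where 1.19% of all genes were called lower and 0.748% higher, and 17 were lower at an unadjusted p under 0.05, where 11.4% of all genes were. The gene called was IARS1, with log2 ratios of -1.08, -1.03, -1.49 and -1.25 (mean -1.21 ± 0.21 SD, n = 4, adjusted p = 0.0227); its adjusted p was 0.0859, 0.111 or 0.0969 without array 1, 3 or 4, 0.0536 with no filter on dim probes and 0.234 with median centring. IARS1 was thus among the synthetases not called in the RNA labelled MUC4-KD. Clone EV7 stood nearest to its control: the members' median was -0.13 there, and -0.74, -0.49 and -0.54 in EV12, EV9 and EV18, with 26, 35, 30 and 31 of 37 below 0.

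The lowest means were those of NUPR1, PCK2, PSAT1, TRIB3 and STC2. NUPR1 had log2 ratios of -0.22, -2.10, -2.39 and -1.83 (mean -1.64 ± 0.97 SD, n = 4, adjusted p = 0.0956). PCK2, described without a test, had -0.31, -1.72, -1.70 and -1.93 (-1.42 ± 0.74), and CTH, likewise, had -0.17, -1.83, -1.52 and -0.88 (-1.10 ± 0.74). In all 3, EV7 was near 0 and the other clones were well below. PSAT1 had -0.56, -1.40, -1.73 and -1.53 (-1.31 ± 0.51, adjusted p = 0.0501), and over 15 alternatives its adjusted p ran from 0.00454 to 0.316 and passed in 6. TRIB3 had -0.47, -1.64, -1.26 and -1.49 (-1.22 ± 0.52, adjusted p = 0.0598), with a second probe at -0.91, -1.53, -0.69 and -0.97 (adjusted p = 0.0491). WARS1 had -0.43, -1.39, -1.52 and -1.39 (-1.18 ± 0.51, adjusted p = 0.0598). Each of these was lower on 4 of 4 arrays, least in EV7 for PSAT1, WARS1 and the brighter TRIB3 probe but not for the second. STC2 had -1.50, -1.12, 0.23 and -2.50 (-1.22 ± 1.13, adjusted p = 0.203), and there EV9 was the clone above 0. SLC7A11 had 0.28, -1.03, -2.10 and -1.50 (-1.09 ± 1.01, adjusted p = 0.207), CHAC1 had -0.57, -1.71, -1.19 and -0.81 (-1.07 ± 0.50, adjusted p = 0.0702), and ASNS had -0.02, -0.67, -0.28 and -1.60 (-0.65 ± 0.69, adjusted p = 0.275).

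The transcription factors in ErbB2-KD gave no call, where 1.19% of all genes were called lower and 0.748% higher. ATF4 had log2 ratios of 0.00, -0.60, -0.81 and -0.91 (mean -0.58 ± 0.41 SD, n = 4, adjusted p = 0.171), level with the control in EV7 and lower in the other clones. Its second probe ordered the clones otherwise, with -0.59, -1.15, -0.08 and -0.08 (adjusted p = 0.299). CEBPG had 0.04, -0.15, -0.91 and -0.53 (-0.39 ± 0.42, adjusted p = 0.331), and ATF5 had -0.12, 0.18, 0.13 and -0.09 (0.03 ± 0.15, adjusted p = 0.939). DDIT3 had 0.79, -2.90, -0.11 and 0.04 (-0.55 ± 1.62, adjusted p = 0.686) and CEBPB had 0.07, -1.19, 0.21 and 0.16 (-0.19 ± 0.67, adjusted p = 0.764). EV12 alone set the sign of these last 2 means, which were 0.24 and 0.15 without it. The second CEBPB probe had a mean of 0.01. GDF15 had 1.24, -1.75, -0.03 and -0.08 (-0.15 ± 1.23, adjusted p = 0.900), highest in EV7 and lowest in EV12, and its mean without EV12 was 0.38.

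The clones were also read at endoplasmic reticulum genes. The median log2 ratio of 16 targets of ATF6 and XBP1, the other arms of the unfolded protein response, was 0.72 in EV7, -1.05 in EV12, -0.07 in EV9 and 0.22 in EV18. The chaperone HSPA5 had 0.22, -2.0, -0.77 and 0.01 (adjusted p = 0.429), and HERPUD1, of the degradation machinery, had 1.19, -1.51, 0.14 and 0.27 (adjusted p = 0.986). None of the 16 was called, where 1.94% of all genes were, and their part in the members' values was not tested. The members' median was below that of these genes in EV7, EV9 and EV18, and above it in EV12.

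**Figure D3:**
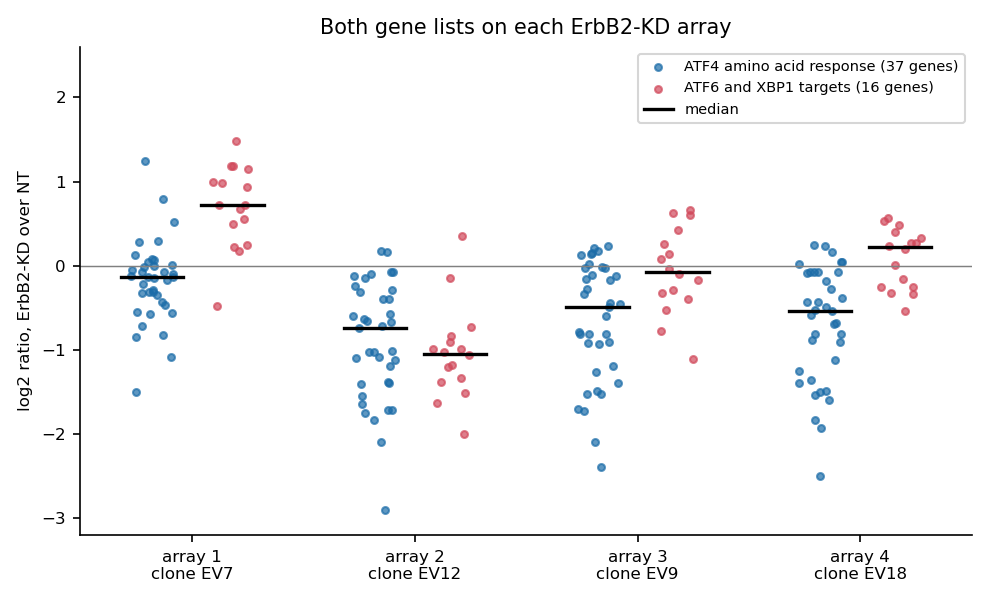
Log2 ratios (ErbB2-KD over NT) of the 37 ATF4 response genes and of 16 ATF6 and XBP1 targets on each ErbB2-KD array; points are genes, spread sideways for visibility, and bars are medians. The ATF6 and XBP1 targets have a median of 0.72 in EV7 and -1.05 in EV12, whereas the ATF4 response genes have medians from -0.74 to -0.13.

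The experiments have no sample in common, and their ratios were compared in 1 fit over all 8 arrays. Each has its own control pool, vector and selection, which cannot be told apart from the knockdown in this comparison. The spread between control pools is not in the fit. Of the 33 members with a test, 8 were lower in MUC4-KD as labelled than in ErbB2-KD and 0 were higher, where 4.81% of all genes were called lower and 6.59% higher. The difference was -1.81 for SLC1A5 (limma adjusted p = 0.00887), -1.70 for TRIB3 (0.0155), -1.57 for SHMT2 (0.00870), -1.51 for PSPH (0.0131), -1.42 for CEBPG (0.00888), -1.03 for SARS1 (0.0124), -0.97 for PHGDH (0.0122) and -0.93 for ATF5 (0.0361). SLC1A5 showed the contrast most plainly, with -0.72, -0.29, 0.15 and 0.05 in ErbB2-KD and every MUC4-KD array at -1.30 or below. SHMT2 lay between -0.49 and 0.01 in ErbB2-KD and at -1.42 or below on every MUC4-KD array. For ATF4 the difference was -0.34 (adjusted p = 0.301), and for IARS1, the gene called in ErbB2-KD, it was 0.80 (adjusted p = 0.129); neither passed. With MUC4-KD array 4 left out the count was 14, where 18.8% of all genes were called in either direction against 11.4% with it.

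This comparison depends on the labels of MUC4-KD. With the sign of those ratios turned, as a reading of MUC4 in place of the labels would have it, all 37 members would be higher in MUC4-KD, and 24 of the 33 would be called for a difference from ErbB2-KD, all higher, where 19.4% of all genes would be called. This alternative was chosen after MUC4 had been read. The members' median difference as labelled was -1.15 on the slide with ErbB2-KD arrays 1 and 3 and MUC4-KD array 2, -0.85 on that with ErbB2-KD array 4 and MUC4-KD arrays 1 and 3, and -0.31 on that with ErbB2-KD array 2 and MUC4-KD array 4, with 36, 31 and 22 of 37 lower.

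**Figure D4:**
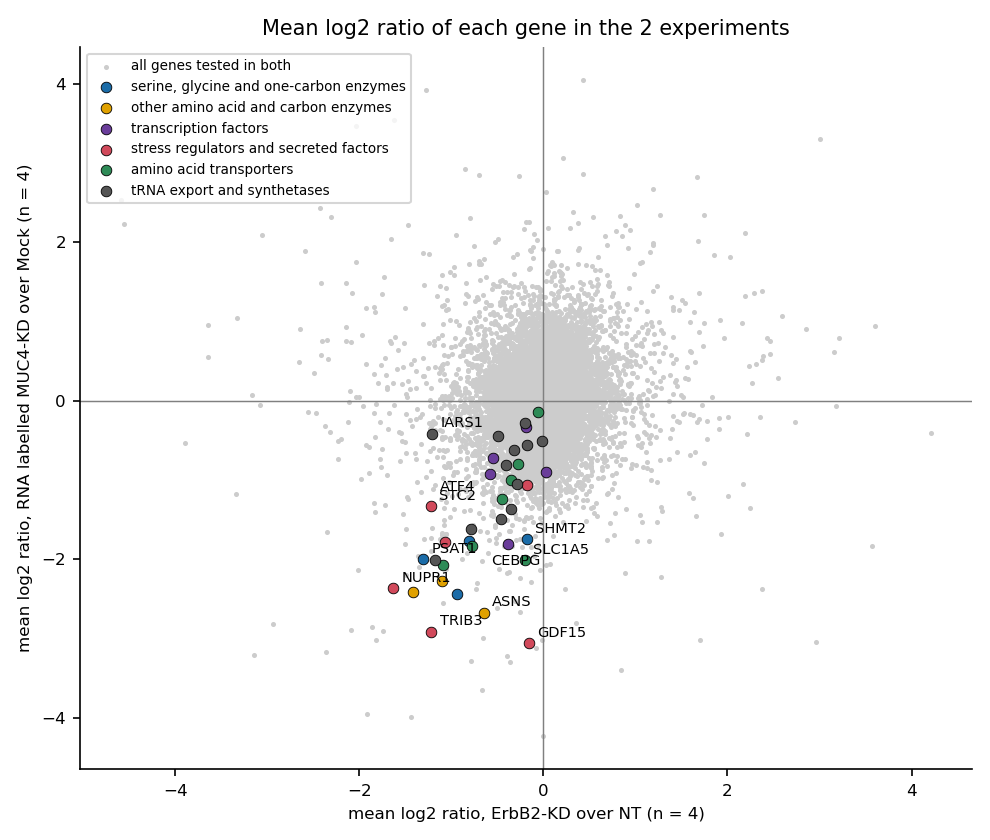
Mean log2 ratio of each gene (n = 4 arrays per experiment), ErbB2-KD over NT on the horizontal axis and RNA labelled MUC4-KD over Mock on the vertical axis; grey points are all genes tested in both and coloured points are the 37 members by role. All members lie below 0 on the vertical axis and 36 of 37 below 0 on the horizontal axis.

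Upstream of ATF4 lie the kinases and phosphatases of eIF2α and its exchange factor. In the RNA labelled MUC4-KD, 2 of 7 genes that write or erase the eIF2α phosphate fell and 1 rose. PPP1R15A, the stress-induced phosphatase subunit GADD34, had log2 ratios of -1.86, -1.89, -1.89 and -1.65 (mean -1.82 ± 0.12 SD, n = 4, adjusted p = 0.00200), and EIF2AK2, the kinase PKR that binds viral RNA, had -2.09, -1.65, -1.45 and -1.07 (-1.56 ± 0.43, adjusted p = 0.00704). PPP1R15B, the constitutive phosphatase subunit, rose by 0.65 ± 0.33 (adjusted p = 0.0354). EIF2AK4, which is GCN2, had a mean of 0.16 (adjusted p = 0.493) and EIF2AK3, which is PERK, had 0.17 (adjusted p = 0.353). None of 5 subunits of the exchange factor eIF2B was called, and their means ran from -0.37 to -0.02. In ErbB2-KD none of these 12 genes was called, and PPP1R15A had a mean of -0.06. Of all genes, 1.94% were called in ErbB2-KD and 23.1% in the RNA labelled MUC4-KD.

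Of 12 further ATF4 targets tested, 5 fell and 1 rose in the RNA labelled MUC4-KD. Over all genes there, 10.9% were called lower and 12.2% higher. PYCR1, which makes proline, had -1.92, -2.17, -2.59 and -2.50 (mean -2.30 ± 0.31 SD, n = 4, adjusted p = 0.00232). The others that fell were JDP2 (-1.14) and ATF3 (-0.66), both basic leucine zipper factors, EIF4EBP1 (-1.07), which restrains cap-dependent translation, and SLC38A1 (-0.74), a glutamine carrier. DDIT4, an mTORC1 inhibitor also induced by hypoxia, went the other way, with 0.87, 2.12, 0.89 and 2.61 (1.62 ± 0.88, adjusted p = 0.0256), and it differed from ErbB2-KD, where it had -0.58, -2.10, -0.70 and -0.67 (difference 2.64, adjusted p = 0.0137). The median of the 12 was -0.36, and they were not tested against the members. In ErbB2-KD 0 of the 12 were called, where 1.94% of all genes were, and ATF3 was lowest, with -0.41, -3.36, -1.68 and -0.52.

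Genes of neighbouring metabolism were called in both directions. Over all genes, 10.9% were called lower and 12.2% higher in the RNA labelled MUC4-KD, and 1.19% lower in ErbB2-KD. In transsulfuration and glutathione synthesis, 4 of 8 genes fell in the RNA labelled MUC4-KD: MAT2A (-1.75), which makes S-adenosylmethionine, GCLC (-1.25), the catalytic subunit of the first step to glutathione, CBS (-1.02), the enzyme before CTH, and GSS (-0.69). GSR, which reduces glutathione, rose by 0.57. The 7 one-carbon genes described outside the set had 2 higher, TYMS (0.93) and AMT (0.60), and 1 lower, GLDC (-1.09), of the glycine cleavage system. The cytosolic counterpart of SHMT2, SHMT1, had a mean of 0.39 (adjusted p = 0.0981). Targets of NRF2, which shares SLC7A11 with ATF4, were read as well. In ErbB2-KD 3 of 6 fell, HMOX1 (-2.49, adjusted p = 0.0216), TXNRD1 (-0.87, adjusted p = 0.0277) and SRXN1 (-0.76, adjusted p = 0.0435), and in the RNA labelled MUC4-KD 1 fell, SRXN1 (-0.81, adjusted p = 0.0401). The difference was 2.84 for HMOX1 (adjusted p = 0.0143) and 1.49 for TXNRD1 (adjusted p = 0.0362). Of 16 ATF6 and XBP1 targets in the RNA labelled MUC4-KD, 2 rose (SDF2L1, 1.02, and CANX, 0.64) and 2 fell (XBP1, -0.70, and SEL1L, -0.63), with a median of 0.13.

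The members with the ATF4 element in the printed promoter window were not alike in the data. ASNS and CHAC1 had means of -2.68 and -1.78 in the RNA labelled MUC4-KD, MARS1 and SLC7A1 had -1.05 and -1.0, and NARS1, with the strict form TGATGCAA, had -0.29. GDF15, TRIB3 and WARS1, with means of -3.06, -2.92 and -2.01, were not among the members with a match. Only 34 of the 41 members had a promoter to search. Each was read in 1 window of 300 bases, so an element outside it would be missed.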

How the data were processed

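Total RNA of CAPAN-2 clones was hybridised on 8 Agilent 2-colour arrays, 4 per experiment, with dyes swapped on 2 of 4. The deposited scanner files hold intensity per spot and channel, and the deposited log10 ratios of Feature Extraction 10.5 (per the submitters' processing notes) served as an alternative. The authors processed their values in GeneSpring. Their lists of changed genes were used for the probe names of 3 members and to compare the direction of the MUC4-KD values. Median spot intensities were corrected with normexp (offset 50) and loess-normalised within each array in limma 3.58.1 (R 4.3.3). Every ratio was given the direction of the labels, knockdown over control, and outlier spots were left out. The series' value table equalled the Feature Extraction ratios in that direction (within 0.001 for 100% of spots on every array). Probes well above background in the same group on all 4 arrays were tested against 0 with lmFit and eBayes, the experiments' difference in 1 fit over 8 arrays, with Benjamini-Hochberg adjustment over all tested probes. Of 41000 probes, 25398 were named through accessions. A gene was read at its brightest probe, and every member is named, with all 4 array values for those past the test or leading a role.

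The members, lists and tests were chosen with earlier results of these data known. The number of arrays limits precision. Alternatives were another offset, centring, filters, dye, slide, trend, the methods' t-test, averaging of probes and leaving out arrays, and the fit was tested on simulated data. Promoters came from RefSeq (GRCh38.p14). No unmapped columns were used. From the other gene lists, 2 genes were left out and are not reported here, and list genes that are not named enter the counts only.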

Additional observations from a re-analysis of the deposited data

Results flagged for a closer look

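In ErbB2-KD, a single array lay apart from the other 3 in 4 members: array 1 for PCK2 (-0.31) and WARS1 (-0.43), both nearest to 0 there, and array 2 for CEBPB (-1.19) and NARS1 (-0.66), both lowest there. In the RNA labelled MUC4-KD the same held for 5 members: array 4 for SHMT2 (-2.46), the lowest, and for EPRS1 (0.08) and AARS1 (0.58), the highest, and array 2 for ASNS (-3.03) and STC2 (-1.81), the lowest. Chance alone sets an array apart in about 5% of groups by this measure, and 74 groups were read.

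The log2 ratios of 8 members differed between the experiments by a test of the difference (MUC4-KD as labelled minus ErbB2-KD): PHGDH by -0.97, PSPH by -1.51, SHMT2 by -1.57, ATF5 by -0.93, CEBPG by -1.42, TRIB3 by -1.70, SLC1A5 by -1.81 and SARS1 by -1.03.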

How the results depend on the processing

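The members' median kept its sign under the alternatives for which it was computed, and with the MUC4-KD ratios turned its sign turns by construction. In ErbB2-KD it lay between -0.49 and -0.43, and between -0.57 and -0.44 with 1 array left out; in the RNA labelled MUC4-KD it was -1.69 from Feature Extraction's own ratios, between -1.43 and -1.30 under the others, and between -1.50 and -1.29 with 1 array left out. Percentages in brackets below are the shares of all genes called in either direction, where computed. The count in ErbB2-KD (1 of 35, 1.94%) was 6 at a 2-fold change with an unadjusted p under 0.01, where the share was not computed. It was 2 at an offset of 10 (2.05%) or with the filter in both channels (1.61%), and 3 with Feature Extraction ratios (2.46%). With an intensity trend it was 4 (2.68%), in 1 fit over 8 arrays 7 (6.01%), and with probes averaged 5 (share not computed). It was 0 with median centring (0.183%), with no filter (0.186%) or by the methods' t-test (0%). With 1 array left out it was 0 to 1 (0 without arrays 1, 3 or 4, where 0%, 0.0249% and 0.183% were called). In the RNA labelled MUC4-KD the count (24 of 33, 23.1%) was 0 with median centring, where 0 of 12289 genes were called. It was 3 by the t-test (0.659%), and 7 (0.936%) to 29 (37.3%) with 1 array left out. For the difference the count (8 of 33, 11.4%) was 0 with median centring (0.413%) and 4 by the t-test (2.78%). It was 24 with the ratios of MUC4-KD turned (19.4%, all higher, chosen after seeing the data). With 1 array left out it was 7 to 14 (shares of 3.14% to 18.8%). With 1 ErbB2-KD array left out the mean changed sign for 6 members, each at least without array 2, and ran from -0.03 to 0.07 for ATF5 (-0.01 without array 3), -0.99 to 0.24 for DDIT3, -0.32 to 0.15 for CEBPB, -0.28 to 0.01 for SESN2, -0.62 to 0.38 for GDF15 and -0.10 to 0.11 for EPRS1 (0.00 without array 1). With median centring SLC38A2 was at 0.05 in the RNA labelled MUC4-KD. The cause of these changes was not tested.

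The replicate numbers do not pair the samples of the experiments: same-numbered deviations correlated at -0.12, -0.24, -0.05 and -0.13. With the number as a replicate block 6 members were called for the difference in place of 8 (2.93% of all genes, in place of 11.4%).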
